A study of Mus musculus with 6 samples.

Results

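The filament genes of the liver described here were the hepatocyte keratins Krt8 and Krt18, the duct keratins Krt7, Krt19 and Krt23, the mesenchymal filament genes Vim and Des, and the linker gene Plec. They are 8 of 22180 genes measured in whole liver. They were chosen by gene family with the strain differences of these arrays known, so the log2 values of Balb/cBy against Balb/c were themselves used in the choice. The probe set (the group of array probes read as 1 value) of each gene was the one with the highest mean over all 6 arrays among those assigned to that gene alone. Liver RNA came from male Balb/c mice and male Balb/cBy mice, with 3 arrays in each group, labelled as biological replicates. All mice were kept in individual cages, ate a high-fat diet (58% of energy from fat) from 8 weeks of age for 12 weeks, and were 20 weeks old when sampled. Both strains descend from 1 albino inbred line. The Balb/cBy substrain is known to lack functional Acads, the short-chain acyl-CoA dehydrogenase, through a deletion. No mice on another diet were analysed here, so the diet is shared by both groups.

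Keratins form the intermediate filaments of epithelial cells, and each filament needs a type I and a type II keratin in equal amounts. Adult mouse hepatocytes make a single such pair, the type II keratin Krt8 and the type I keratin Krt18, while bile duct cells add Krt7 and Krt19. The hepatocyte pair is known for its induction in stressed or injured liver and as the main protein of the keratin aggregates called Mallory-Denk bodies. Vimentin and desmin are the filaments of mesenchymal cells, among them stellate cells and vascular muscle, and vimentin is also made by leukocytes and endothelium.

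Krt8 and Krt18 lie next to each other on chromosome 15, with no other measured gene between them. The RefSeq promoter windows of this pair are printed because both transcripts differed alike between the strains, and that of Krt7, a duct keratin of the same chromosome, for contrast. Each runs 5′ to 3′ from 250 bases before the annotated start to 50 after it, in build GRCm38.p6, at chr15:102004293-102004592 (minus strand) for Krt8, chr15:102027966-102028265 (plus strand) for Krt18 and chr15:101412153-101412452 (plus strand) for Krt7. Capitals mark matches, on either strand, to the GC box GGGCGG, the CCAAT box CCAAT, the TATA box TATAAA, the AP-1 site TGANTCA or the E-box CACGTG.

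Krt8: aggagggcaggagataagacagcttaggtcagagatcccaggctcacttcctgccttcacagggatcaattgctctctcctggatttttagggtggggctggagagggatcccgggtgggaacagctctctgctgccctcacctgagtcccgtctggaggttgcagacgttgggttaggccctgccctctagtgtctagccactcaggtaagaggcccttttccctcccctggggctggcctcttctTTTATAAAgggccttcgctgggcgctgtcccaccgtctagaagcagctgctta

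Krt18: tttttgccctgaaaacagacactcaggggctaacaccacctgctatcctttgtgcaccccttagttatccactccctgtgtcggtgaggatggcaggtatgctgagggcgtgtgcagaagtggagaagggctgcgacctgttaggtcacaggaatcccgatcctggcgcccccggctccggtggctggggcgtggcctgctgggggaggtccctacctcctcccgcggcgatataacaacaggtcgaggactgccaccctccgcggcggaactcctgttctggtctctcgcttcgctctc

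Krt7: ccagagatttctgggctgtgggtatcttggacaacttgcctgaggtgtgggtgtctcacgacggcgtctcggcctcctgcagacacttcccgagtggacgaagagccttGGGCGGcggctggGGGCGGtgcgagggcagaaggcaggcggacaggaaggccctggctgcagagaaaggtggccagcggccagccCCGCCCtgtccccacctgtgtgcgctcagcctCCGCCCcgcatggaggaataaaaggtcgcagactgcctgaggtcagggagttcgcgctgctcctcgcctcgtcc

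The Krt8 window held 2 overlapping TATA box matches, 1 on each strand, and the Krt18 window held no match to any of the 5 motifs. The 2 matches of Krt8 share the letters TTTATAAA and begin at -3 and -1 from the annotated start, so they lie at the start itself. The Krt7 window held 4 GC boxes. Over 32851 promoter windows of this length, 35.7% held a GC box, 37.4% a CCAAT box, 13.6% a TATA box, 7.81% an AP-1 site and 7.15% an E-box. The share of G and C was 58.0% for Krt8, 61.3% for Krt18 and 66.3% for Krt7, against a median of 52.7%. The table held windows of 6 of the 8 genes. A match is a description of these letters and not a site shown to be bound.

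Krt8 and Krt18 were both higher in Balb/cBy livers, each by a factor close to 1.5, and their arrays varied little within a strain. Levels are given as log2 values, so a difference of 1 is a doubling. Krt8 stood at 11.16, 11.14 and 11.21 in Balb/c replicates 1, 2 and 3, and at 11.84, 11.74 and 11.82 in Balb/cBy replicates 1, 2 and 3. Every Balb/cBy array lay above every Balb/c array, and the nearest arrays of the 2 strains were 0.53 apart. The means were 11.17 ± 0.039 and 11.80 ± 0.050 (SD, n = 3 each). The log2 difference was 0.63 (moderated standard error, SE, 0.086), or 1.55-fold. In bulk tissue, more cells of a type and more RNA per cell cannot be told apart.

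Krt18 stood at 11.23, 11.14 and 11.16 in the Balb/c arrays and at 11.76, 11.86 and 11.73 in the Balb/cBy arrays. Its groups did not overlap either, with a gap of 0.50 between the nearest arrays. The means were 11.18 ± 0.045 and 11.79 ± 0.070 (SD, n = 3 each). The log2 difference of Krt18 was 0.61 (SE 0.089), or 1.53-fold. A second probe set assigned to Krt18 alone read 9.95, 9.52 and 9.49 in Balb/c and 10.42, 10.64 and 10.41 in Balb/cBy. It again separated the strains, with a log2 difference of 0.84 (SE 0.14) and a wider spread within Balb/c (SD 0.26). The target and strand of this second probe set are not known from the sources used here.

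**Figure D1:**
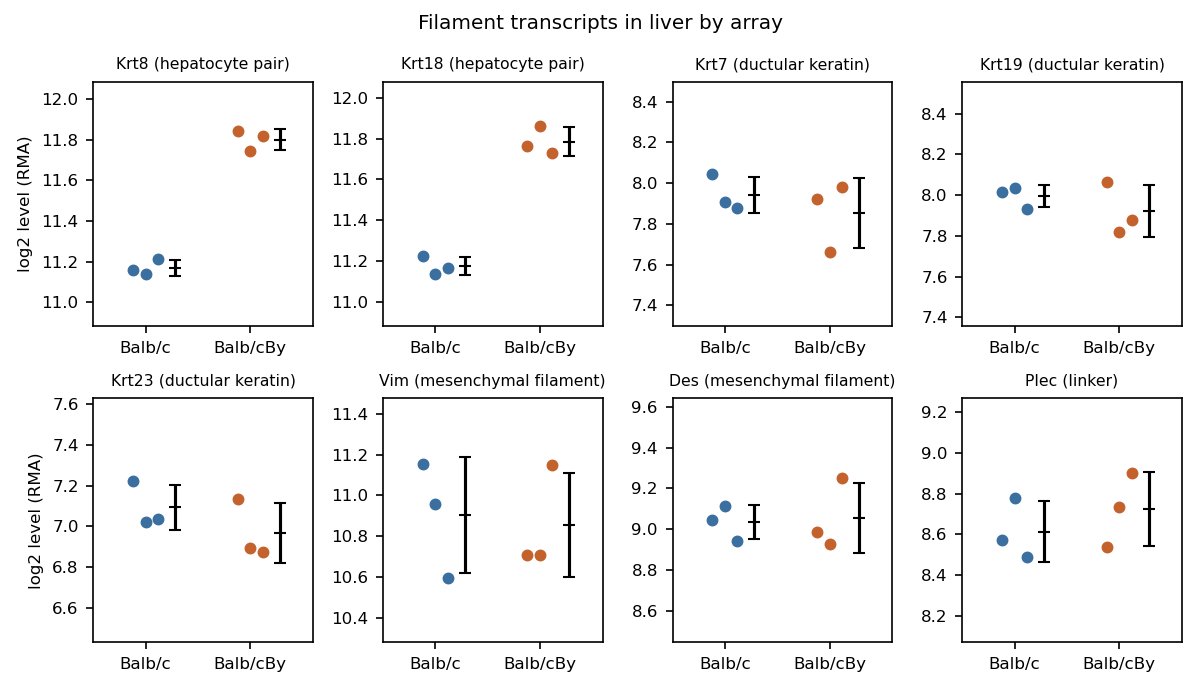
Log2 level (RMA, vertical axis, each panel spanning the same range of values) of the 8 filament genes in the 3 Balb/c arrays (blue) and the 3 Balb/cBy arrays (orange), with the mean ± SD in black. Krt8 and Krt18 sit near 11.17 in Balb/c and near 11.79 in Balb/cBy with no overlap, while the other 6 genes overlap between the strains.

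These values helped to choose the genes, so they are a description and carry no test. The limma fit over all 22180 genes called 0 at an adjusted p of 0.05 (0.0%), the filament genes included, and 833 genes (3.76%) had an unadjusted p under 0.05, 2.59% higher and 1.16% lower in Balb/cBy. Of the 8 genes, 2 had groups that did not overlap, Krt8 and Krt18, both higher. Over all genes that held for 7.83%, with 4.32% in the higher and 3.51% in the lower direction. Since this contrast was used to choose the genes, nothing is read from the count. A difference as large as that of Krt8 or larger, in the same direction, was seen in 85 genes, Krt8 included, and one as large as that of Krt18 in 93. With Balb/cBy higher, a gap between the strains as wide as that of Krt8 was seen in 15 genes, Krt8 included. One as wide as that of Krt18 was seen in 16, and gaps in the lower direction were not counted. The within-strain SD was 0.045 for Krt8 and 0.059 for Krt18, against a median of 0.142 over all genes, and 2.54% and 6.16% of genes had a smaller one. With 3 arrays a group, an exact two-sided permutation test could not give a p below 0.1.

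Krt8 and Krt18 showed a like strain difference, and within each strain the order of the arrays was not the same for both. With 3 arrays and within-strain SDs of 0.045 and 0.059, whether the 2 genes vary together within a strain cannot be told. With each gene set to its own Balb/c mean, Krt8 and Krt18 together stood at 0.02, -0.04 and 0.02 in the Balb/c arrays and at 0.63, 0.63 and 0.60 in the Balb/cBy arrays. The deviation of Krt8 minus that of Krt18 lay between -0.06 and 0.05 in Balb/c and between -0.11 and 0.09 in Balb/cBy. Its mean difference between the strains was 0.02, within the SD of either group (0.058 and 0.117). That SD was larger than the SD of Krt8 or of Krt18 in the same strain. In Balb/cBy replicate 2, Krt8 was the lowest of its group and Krt18 the highest.

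The profile over the 6 arrays was compared with that of every other gene. The distance used was the root mean square of the difference between the deviations of 2 genes from their own means. It includes the strain difference used to choose the pair, so a gene near the pair here is mainly one with a like difference between the strains and little spread. Among 22179 other genes, Krt18 was the nearest to Krt8, at 0.0759, followed by Manf at 0.0821 and Snx32 at 0.0976, where the median gene was at 0.343. The nearest to Krt18 were Snx32 at 0.0456, Manf at 0.0727 and Krt8 at 0.0759, with a median of 0.334. Manf encodes a secreted stress factor of the endoplasmic reticulum, and Snx32 a sorting nexin. Manf stood at 8.50, 8.47 and 8.56 in Balb/c and at 9.04, 9.22 and 9.22 in Balb/cBy, a log2 difference of 0.65 (SE 0.094). Snx32 stood at 7.60, 7.57 and 7.52 in Balb/c and at 8.05, 8.25 and 8.14 in Balb/cBy, a difference of 0.59 (SE 0.093). None of the other filament genes was among those nearest to the pair. Plec and Des lay nearer than the median gene, and Krt7, Krt19, Krt23 and Vim farther. Plec came nearest at rank 4929 for Krt8 and 5419 for Krt18, and Vim was farthest at rank 18857 and 18721.

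The duct keratins did not share the difference of the pair. Krt7, the type II keratin of bile ducts, stood at 8.05, 7.91 and 7.88 in Balb/c and at 7.92, 7.66 and 7.98 in Balb/cBy. The strains overlapped, with Balb/cBy replicate 2 lowest, and the log2 difference was -0.09 (SE 0.11). Krt19, a type I keratin used as a bile duct marker, stood at 8.02, 8.03 and 7.93 in Balb/c and at 8.06, 7.82 and 7.88 in Balb/cBy. Its highest array was Balb/cBy replicate 1, and its difference was -0.07 (SE 0.10). Krt23, a type I keratin known to be induced in the ductular reaction of injured liver, stood at 7.22, 7.02 and 7.04 in Balb/c and at 7.13, 6.89 and 6.87 in Balb/cBy. Those groups overlapped as well, with a difference of -0.13 (SE 0.11). All 3 duct keratins had a mean level below the median gene mean of 8.03, while the other 5 filament genes lay above it.

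Vim and Des overlapped between the strains. Vim stood at 11.16, 10.96 and 10.59 in Balb/c and at 10.71, 10.71 and 11.15 in Balb/cBy. The spread within a strain was the widest of the 8 genes, with an SD of 0.29 for Balb/c and 0.25 for Balb/cBy, and the difference was -0.05 (SE 0.17). Its second probe set read 9.40, 9.26 and 8.83 in Balb/c and 9.02, 9.14 and 9.41 in Balb/cBy, a difference of 0.02 (SE 0.17). Both probe sets had Balb/c replicate 3 lowest and placed Balb/c replicate 1 and Balb/cBy replicate 3 highest. Des, the muscle and stellate cell filament, stood at 9.05, 9.11 and 8.94 in Balb/c and at 8.98, 8.93 and 9.25 in Balb/cBy, a difference of 0.02 (SE 0.11). The sign for Vim and for Des changed with the array left out.

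Plec, which encodes the plakin plectin that ties intermediate filaments to junctions and to the other parts of the cytoskeleton, stood at 8.57, 8.78 and 8.49 in Balb/c. It stood at 8.54, 8.74 and 8.90 in Balb/cBy, so that the groups overlapped. The difference was 0.11 (SE 0.13).

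**Figure D2:**
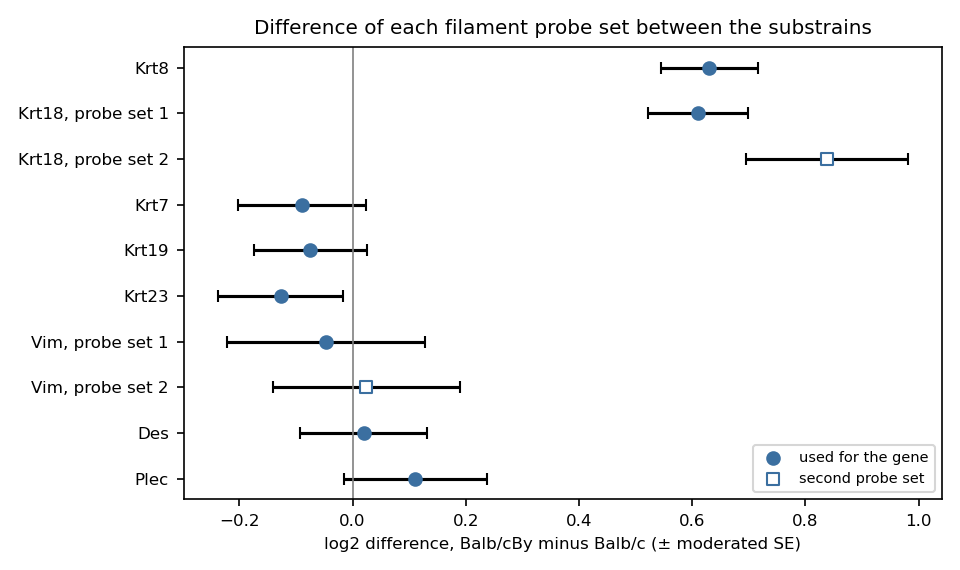
Log2 difference, Balb/cBy minus Balb/c (horizontal axis), with the moderated SE, for the 10 probe sets assigned to 1 filament gene alone. Filled circles are the probe sets used for the genes and open squares the second probe sets of Krt18 and Vim. The 3 probe sets of Krt8 and Krt18 lie between 0.61 and 0.84, and the other 7 between -0.13 and 0.11.

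Set against the duct keratins array by array, the hepatocyte pair stood higher in Balb/cBy livers. The mean deviation of the pair minus that of Krt7, Krt19 and Krt23 was -0.07, -0.01 and 0.08 in Balb/c and 0.60, 0.85 and 0.70 in Balb/cBy. The mean in Balb/cBy was 0.72 ± 0.13 above a Balb/c mean set to 0 (SD 0.072 in Balb/c, n = 3 each). Minus Vim and Des, the pair stood at -0.11, -0.10 and 0.22 in Balb/c and at 0.75, 0.78 and 0.37 in Balb/cBy. That difference was 0.63 ± 0.23 (SD; 0.187 in Balb/c, n = 3 each). The gap to Vim and Des was narrowest in Balb/cBy replicate 3, where Vim and Des were high, and the groups still did not overlap.

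**Figure D3:**
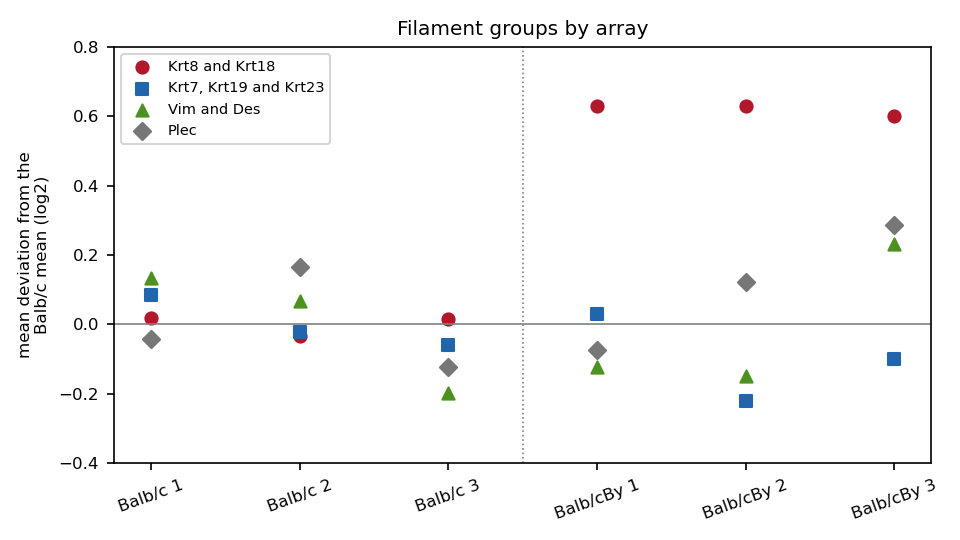
Mean deviation from the Balb/c mean (log2, vertical axis) of Krt8 and Krt18 (circles), Krt7, Krt19 and Krt23 (squares), Vim and Des (triangles) and Plec (diamonds) in each array. The pair lies between 0.60 and 0.63 in the 3 Balb/cBy arrays, while the other groups stay between -0.22 and 0.29 in all 6 arrays.

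The genes on both sides of the pair were examined by their order in the RefSeq table of assembly GRCm38.p6, a choice made after the values of the pair had been seen. Of the 10 measured genes on each side, 10 of the 20 were higher and 10 lower in Balb/cBy, with a median difference of -0.01 and a range from -0.23 to 0.28. The nearest neighbours were the keratin Krt78 on the side of Krt8, with a difference of 0.05 (SE 0.12), and the translation factor Eif4b on the side of Krt18, with 0.02 (SE 0.23), and both signs changed with the array left out. Krt79, a keratin 2 genes from Krt8, differed by -0.18 (SE 0.091) without overlap of the strains. On the other side, Rarg, a retinoic acid receptor, differed by 0.20 (SE 0.089) and Mfsd5, a membrane transporter, by 0.28 (SE 0.13), also without overlap. That of Mfsd5 was 0.13 with Balb/cBy replicate 2 left out. None of these 20 genes reached the difference of the pair. On the side of Krt8 all 10 were other keratins. Most of those lay below the median gene mean of 8.03, so that they were read at low levels.

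**Figure D4:**
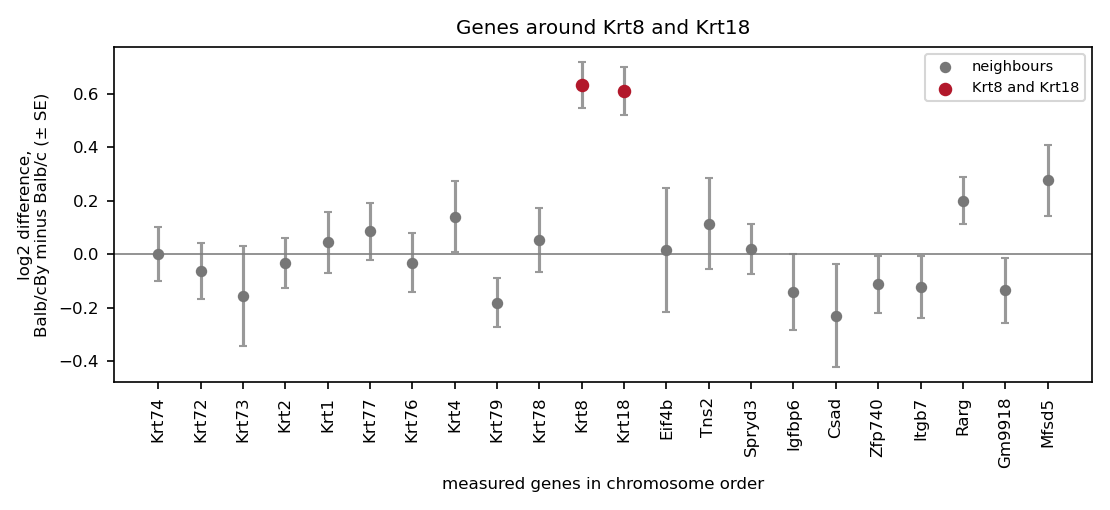
Log2 difference, Balb/cBy minus Balb/c, with the moderated SE (vertical axis), for Krt8 and Krt18 (red) and the 10 measured genes on each side (grey) in chromosome order. The pair stands at 0.63 and 0.61, and the neighbours lie between -0.23 and 0.28.

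Other intermediate filament genes did not differ as the pair did. Of 57 measured, which were all other numbered keratins and 13 genes such as the lamins and neurofilaments, 20 were higher and 37 lower in Balb/cBy. Their median difference was -0.03, where all genes had a median of -0.0028 and 49.1% higher. By limma 0 of the 57 passed and 0 had an unadjusted p under 0.05 in either direction. A mean level below the median gene mean was seen in 42 of them. The largest difference was that of Krt87 at 0.25 (SE 0.12, adjusted p = 0.999), with strains that overlapped, and it was 0.16 with Balb/cBy replicate 1 left out. Of 21 other keratins on chromosome 15, 10 were higher and 11 lower, and of 23 on chromosome 11, 5 were higher and 18 lower, with medians of -0.02 and -0.04.

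Plakins and desmosome genes, whose products anchor keratin filaments at the cell border, were higher in 8 of 17 measured and lower in 9, with a median of -0.06. By limma 0 passed, and 0 had an unadjusted p under 0.05. Dystonin, Dst, another plakin, stood at 8.23, 8.37 and 8.44 in Balb/c and at 8.46, 8.61 and 8.59 in Balb/cBy. The strains did not overlap, although by a narrow margin, with a difference of 0.21 (SE 0.098, adjusted p = 0.999). Periplakin, Ppl, differed by 0.23 (SE 0.11) with overlap, and by 0.15 with Balb/cBy replicate 2 left out. Desmoplakin, Dsp, differed by 0.14 (SE 0.17), with 0.02 to 0.34 when single arrays were left out.

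Genes known with keratin aggregates and with the handling of misfolded keratin were higher in 10 of 15 measured and lower in 5, with a median of 0.16. By limma 0 passed, while 2 of 15 had an unadjusted p under 0.05 in the higher direction, against 2.59% of all genes. Hspb1, a small heat shock protein, stood at 8.49, 8.57 and 8.17 in Balb/c and at 9.74, 9.19 and 9.22 in Balb/cBy. The strains did not overlap, and the difference was 0.97 (SE 0.17, adjusted p = 0.429). A second probe set of Hspb1 differed by 0.09 (SE 0.16), at 7.76, 8.43 and 7.97 in Balb/c and 8.19, 8.16 and 8.07 in Balb/cBy, and the mean of both gave 0.53 (SE 0.14, adjusted p = 0.999). Bag3, a cochaperone, stood at 9.27, 9.18 and 8.76 in Balb/c and at 9.18, 10.17 and 9.74 in Balb/cBy, a difference of 0.62 (SE 0.24, adjusted p = 0.999). Balb/cBy replicate 1 lay within the Balb/c range for Bag3, whereas it was the highest array for Krt8 and for Hspb1. Without Balb/cBy replicate 2 the difference of Bag3 was 0.39. The adaptor p62, Sqstm1, a component of Mallory-Denk bodies, differed by 0.09 (SE 0.10), or 0.03 to 0.13 when single arrays were left out. The inducible chaperone Hspa1b differed by 0.83 (SE 0.87), or 0.12 to 1.98 in the same way.

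Kinases, adaptors and transcription factors known to act on the pair were higher in 11 of 16 measured and lower in 5, with a median of 0.03, and by limma 0 passed. An unadjusted p under 0.05 was reached by 1 of them, in the higher direction, against 2.59% of all genes. Ets2, a transcription factor, stood at 9.02, 8.98 and 8.87 in Balb/c and at 9.04, 10.10 and 9.40 in Balb/cBy. Its difference of 0.56 (SE 0.24, adjusted p = 0.999) was 0.27 without Balb/cBy replicate 2. The protein kinase Prkce differed by -0.21 (SE 0.11), and by -0.11 with Balb/cBy replicate 1 left out.

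**Figure D5:**
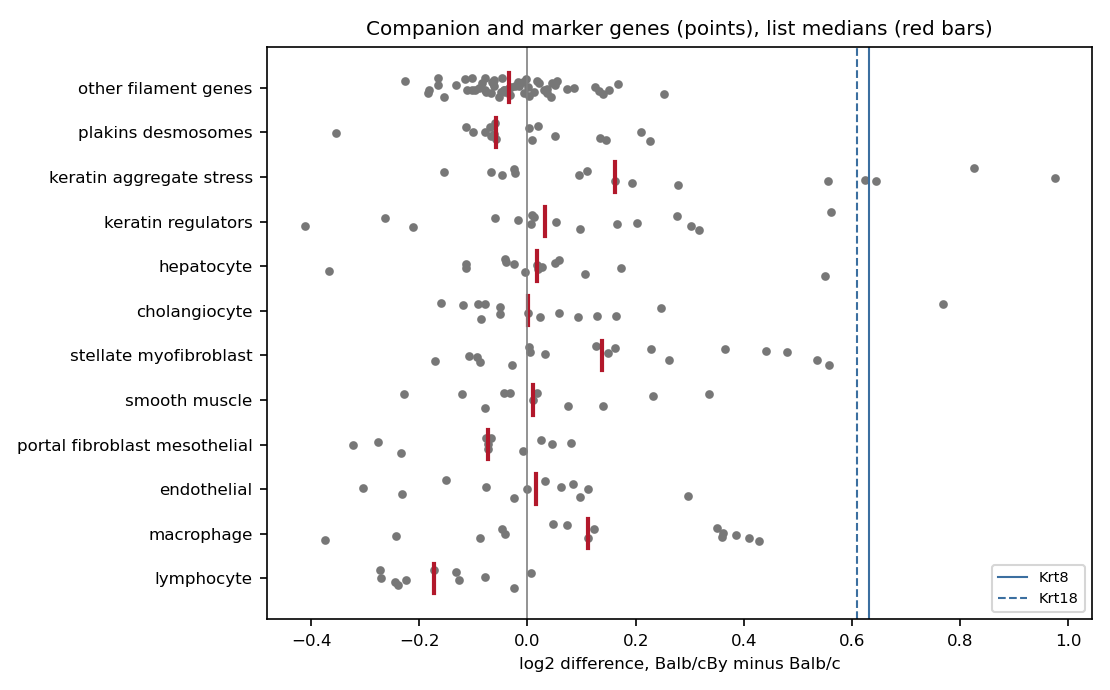
Log2 difference, Balb/cBy minus Balb/c (horizontal axis), of each measured gene (grey points) in 4 companion lists and 8 cell type marker lists, with list medians as red bars and Krt8 and Krt18 as blue lines. Genes of the other filament list lie between -0.23 and 0.25, and the medians of all 12 lists between -0.17 and 0.16.

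Markers of the cells that make these filaments were measured beside them, and by limma 0 passed in any of the 8 lists. Hepatocyte markers were high on average in every array, although Ass1 stood at 7.80 to 8.33, near the median gene mean of 8.03. The mean level of the list was 12.68 to 12.80 in Balb/c and 12.66 to 12.80 in Balb/cBy. Of these 15 markers, 8 were higher, with a median difference of 0.02. Serpina1a, an alpha-1 antitrypsin gene, differed by 0.55 (SE 0.20) and Tdo2, a tryptophan dioxygenase, by -0.37 (SE 0.21), both with overlap. Serpina1a was at 0.32 with Balb/cBy replicate 2 left out. Tdo2 was at -0.14 with Balb/c replicate 3 left out and at -0.23 with Balb/cBy replicate 1 left out. The list means overlapped between the strains, unlike the levels of the pair. Several of these markers were read well above the pair, such as the albumin gene Alb, which stayed between 14.16 and 14.22 in every array. Whether the arrays could show a difference the size of the pair's at such levels was not tested, so nothing is read from this contrast.

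Bile duct markers had a mean level of 7.76 to 7.79 in Balb/c and 7.80 to 7.90 in Balb/cBy, with 8 of 15 higher and a median of 0.0011. Of these 15, 10 lay below the median gene mean, so that ducts were read at low levels. The array with the highest list mean, Balb/cBy replicate 2, held Onecut1, a transcription factor that hepatocytes also express, at 11.38 against 9.26 to 9.73 in the other arrays. The difference of Onecut1 was 0.77 (SE 0.41), and 0.21 without that array. Epcam, a surface protein of duct cells, differed by -0.05 (SE 0.10), with a sign that changed without Balb/c replicate 3. Cftr, a chloride channel of ducts, differed by -0.16 (SE 0.11), or -0.08 without Balb/c replicate 2. Sox9, a duct transcription factor, differed by 0.16 (SE 0.15), or 0.0089 without Balb/cBy replicate 1.

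Stellate cell and myofibroblast markers were higher in 13 of 18, with a median of 0.14, which was 0.02 when Balb/c replicate 3 was left out and 0.07 when Balb/cBy replicate 3 was. Lumican, Lum, differed by 0.53 (SE 0.12, adjusted p = 0.744) and dermatopontin, Dpt, by 0.56 (SE 0.14, adjusted p = 0.999), both without overlap. An unadjusted p under 0.05 was reached by 3 of 18, all higher, where 2.59% of all genes did so. The list mean was 8.85 to 9.23 in the Balb/c arrays and 9.07 to 9.30 in the Balb/cBy arrays. It was lowest in Balb/c replicate 3, where Vim was lowest too, and highest in Balb/cBy replicate 3, where Vim was high. The part of these cells in the values of Vim was not tested.

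Smooth muscle markers had a median of 0.01, with 6 of 11 higher. Tagln, an actin-binding protein, differed by 0.34 (SE 0.12) without overlap and Acta2, smooth muscle actin, by 0.23 (SE 0.13), or 0.13 without Balb/cBy replicate 3. Their list mean was highest in Balb/cBy replicate 3, at 8.71 against 8.48 to 8.59 in the others, and Des was highest in that array too. Portal fibroblast and mesothelial markers were higher in 3 of 11, with a median of -0.07. The uroplakins Upk3b and Upk1b, read as mesothelial markers, differed by -0.32 (SE 0.14) and -0.23 (SE 0.15). With Balb/c replicate 1 left out they were at -0.18 and -0.08, and with Balb/cBy replicate 2 left out Upk1b was at -0.15. An unadjusted p under 0.05 was reached by 1 of 11, lower, against 1.16% of all genes.

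Of the other cells that make vimentin, endothelial markers had a median of 0.02, with 6 of 12 higher. Fcgr2b, an Fc receptor of sinusoids, differed by -0.30 (SE 0.15), and Kdr, a receptor for vascular growth factor, by -0.23 (SE 0.13). Fcgr2b was at -0.18 with Balb/c replicate 1 left out and at -0.20 with Balb/cBy replicate 3 left out, and Kdr at -0.09 with Balb/cBy replicate 1 left out. Among the 6 that were higher, Lyve1 differed most, by 0.30 (SE 0.19) with overlap. Macrophage markers were higher in 10 of 15, with a median of 0.11, which was 0.01 when Balb/c replicate 3 was left out and 0.28 when Balb/c replicate 2 was. Leaving out Balb/cBy replicate 3 gave 0.0052, and leaving out Balb/cBy replicate 1 gave 0.24. Gpnmb, a glycoprotein of lipid-laden macrophages, and the tetraspanin Cd9 each differed by 0.36 (SE 0.099 and 0.11), without overlap. Gpnmb lay below the median gene mean. A second probe set of Cd9 differed by -0.11 (SE 0.11), and the mean of both by 0.12 (SE 0.093). The 5 macrophage markers that were lower included Adgre1 at -0.37 (SE 0.29) and Marco at -0.24 (SE 0.15), both with overlap. An unadjusted p under 0.05 was reached by 4 of 15 macrophage markers, all higher, against 2.59% of all genes. The macrophage list mean was lowest in Balb/c replicate 3, at 9.05 against 9.31 to 9.57 in the others, which is also the array where Vim was lowest. Vim was highest in Balb/c replicate 1, where this list mean was 9.38, against 9.52 in Balb/c replicate 2. The part of macrophages in the values of Vim was not tested. Lymphocyte markers were lower in 10 of 11, with a median of -0.17, led by the B cell genes Ms4a1 at -0.27 (SE 0.093) and Cd79b at -0.27 (SE 0.096). Of these 11, 6 lay below the median gene mean, Ms4a1 among them, so that they were read at low levels. In this list 3 of 11 had an unadjusted p under 0.05, all lower, where 1.16% of all genes did, and 4 had strains that did not overlap, where 3.51% did. Without Balb/c replicate 2 that median was -0.11.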

How the data were processed

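Liver RNA of 6 mice was hybridised to 1-colour Affymetrix arrays from 500 ng of total RNA, per the labels' protocols. The authors' deposited table gives 1 log2 value per probe set and array, computed with RMA per the submitters' processing notes. RMA corrects the background, applies quantile normalization and summarises the probes of a set, which can narrow differences between arrays. No source used here gives its version or a genome build. There were 41345 probe sets, with array medians from 7.66 to 7.74 and correlations between arrays from 0.972 to 0.988. Platform annotation gave 1 symbol to 23521 probe sets, several to 1814 and none to 16010. Probe sets shared with another gene, 1 each for Des and Plec, were not used. Precision is limited by the number of arrays.

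Groups came from the titles. Balb/cBy minus Balb/c was fitted with limma 3.58.1 (R 4.3.3, lmFit, eBayes) on the log2 values of 22180 genes, with Benjamini-Hochberg adjustment over all genes and no filter. The script was tested on simulated data. The members and lists were chosen with earlier results of these data known. Genes named were the 8 members, Acads, the 2 genes of each list with the smallest p where none passed, and the 3 nearest to each keratin of the pair. Dsp, Sqstm1, Hspa1b, Epcam, Sox9, Ass1, Lyve1, Adgre1, Marco and the neighbours were named after their values were seen. Acads, which checks the strain labels, differed by -0.65 (SE 0.12) without overlap. Deviations of arrays with the same replicate number correlated at -0.323, -0.201 and -0.228, and those with different numbers at 0.0154 to 0.224. Deviations sum to 0 within a group of 3 arrays, so these values cannot tell whether the numbers pair the mice. The main fit used no block.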

Additional observations from a re-analysis of the deposited data

How the results depend on the processing

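The differences of Krt8 and Krt18 stayed positive in all 11 alternatives that give a value, which was fixed in advance for most of these. The strains did not overlap for either gene, so leaving out an array cannot change the sign. The replicate block and the filter on low values leave both differences as they are. Leaving out each array in turn gave 0.61 to 0.66 for Krt8, 0.57 to 0.64 for Krt18, 0.65 to 0.78 for the pair minus the duct keratins and 0.56 to 0.77 for the pair minus Vim and Des. Krt8 was at 0.57 after a repeated quantile normalization, and Krt18 at 0.72 with the mean of both its probe sets; both moved by more than the within-strain SD. Krt7 ranged from -0.15 to 0.0079, Vim from -0.20 to 0.08 and Des from -0.08 to 0.08, so their signs are not settled, while Krt19 and Krt23 stayed below 0 and Plec above 0. The filter on low values left the duct keratins out.

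The count of genes past the adjusted p of 0.05 was 0 to 3 when 1 array was left out (2 when Balb/c replicate 3 was left out and 3 when Balb/cBy replicate 1 was, no filament gene among them). It was 12 with array weights, Krt8 among them, where the same arrays also set the weights. It was 0 in the other settings, a threshold of 0.1 included. With the replicate number as a block 0 genes passed, and 511 in place of 833 had an unadjusted p under 0.05. That count was 431 to 1828 when 1 array was left out (lowest for Balb/cBy replicate 2, highest for Balb/cBy replicate 1) and 1761 with array weights, so the background share is itself unsteady. It was 461 after the filter on low values, with fewer genes tested. The block did not change the differences of Krt8 (0.63, SE 0.12) and Krt18 (0.61, SE 0.12). Among the other genes named, Epcam was at -0.11 to 0.0064, Krt78 at -0.031 to 0.13 and Eif4b at -0.22 to 0.26 when single arrays were left out. Eif4b was at -0.040 after a repeated quantile normalization. With 3 arrays a group the SE of a typical gene was 0.116, and smaller shifts of the duct keratins could not be resolved.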
